A study of Rattus norvegicus with 28 samples.

Results

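Transcripts of 8 enzymes of cholesterol synthesis were followed in the striatum of wild-type rats and of transgenic rats made to model DYT-TOR1A, a hereditary dystonia, with and without a nerve injury. The 8 genes, Hmgcs1, Idi1, Fdps, Fdft1, Sqle, Lss, Cyp51 and Dhcr7, were taken by name from a table of 39538 genes. All 8 were found and all 8 exceeded the minimum of 0.5 RPM in 6 libraries that 18222 genes reached. RPM are reads per 1000000 reads assigned to genes. RNA sequencing had been done on 28 libraries of male rats in 4 groups. There were 8 libraries of wt naive rats, 6 of wt rats with a sciatic nerve crush, 8 of naive rats of the {delta}ETorA genotype and 6 of {delta}ETorA rats with the crush. The {delta}ETorA rats are called TG here. The crush was set on the right side for 30 seconds, and every library, naive ones included, is labelled with 12 weeks since injury. The rats' age and strain and the promoter of the transgene are not given in the sources used here.

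Cholesterol in the brain is made in place, because lipoprotein cholesterol of the blood hardly crosses the blood-brain barrier. Most of it lies in myelin, and in the adult brain astrocytes are a main site of synthesis and pass cholesterol to neurons on particles that carry apolipoprotein E. The pathway starts from acetyl-CoA and runs through mevalonate and squalene to lanosterol and cholesterol, and its genes are switched on together by the transcription factor SREBP2 when sterols in the endoplasmic reticulum run low. TorsinA, the product of TOR1A, is an ATPase of the same endoplasmic reticulum and nuclear envelope.

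The promoter sequences of the enzymes are shown because SREBP2 works with the CCAAT-binding factor NF-Y and the GC-box factor Sp1 at promoters of this pathway. Promoters of 6 of the 8 genes were matched in RefSeq (GRCr8), as 300 bases around the start of the gene. Those of Sqle and Fdft1 were not matched. A CCAAT box, searched as CCAAT on both strands, was present in 4 of the 6 windows, against 37.5% of all 33469 windows and 36.3% of the 13309 windows of tested genes. These 4 are printed here 5′ to 3′ in the direction of the gene, with each CCAAT, or ATTGG where the box is on the other strand, in capitals. They lie at chr2:53382054-53382353 (plus strand) for Hmgcs1, chr17:66547475-66547774 (minus strand) for Idi1, chr2:176804767-176805066 (minus strand) for Fdps and chr20:12118181-12118480 (minus strand) for Lss.
Hmgcs1: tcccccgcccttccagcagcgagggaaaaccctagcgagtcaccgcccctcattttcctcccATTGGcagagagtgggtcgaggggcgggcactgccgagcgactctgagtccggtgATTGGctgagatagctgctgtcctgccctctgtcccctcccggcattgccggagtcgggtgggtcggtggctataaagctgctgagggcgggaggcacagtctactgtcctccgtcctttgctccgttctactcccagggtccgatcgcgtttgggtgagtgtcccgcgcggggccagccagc
Idi1: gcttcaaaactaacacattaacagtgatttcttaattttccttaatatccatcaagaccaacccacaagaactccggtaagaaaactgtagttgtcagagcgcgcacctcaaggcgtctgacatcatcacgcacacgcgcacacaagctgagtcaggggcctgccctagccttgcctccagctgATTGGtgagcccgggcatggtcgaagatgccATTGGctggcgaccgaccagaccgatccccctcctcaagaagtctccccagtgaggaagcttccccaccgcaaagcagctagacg
Fdps: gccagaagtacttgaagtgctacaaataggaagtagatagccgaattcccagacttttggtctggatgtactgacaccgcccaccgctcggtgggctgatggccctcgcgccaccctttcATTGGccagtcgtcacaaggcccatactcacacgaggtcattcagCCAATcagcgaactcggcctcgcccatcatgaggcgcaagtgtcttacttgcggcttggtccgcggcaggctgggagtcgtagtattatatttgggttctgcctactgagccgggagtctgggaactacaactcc
Lss: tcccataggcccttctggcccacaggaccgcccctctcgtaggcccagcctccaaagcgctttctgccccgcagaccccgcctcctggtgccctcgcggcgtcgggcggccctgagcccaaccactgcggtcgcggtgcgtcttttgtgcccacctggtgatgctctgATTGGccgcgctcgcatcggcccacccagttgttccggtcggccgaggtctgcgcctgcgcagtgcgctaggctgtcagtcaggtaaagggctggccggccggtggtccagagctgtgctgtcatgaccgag

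The capitals begin 188 and 133 bases before the start in Hmgcs1, 66 and 35 in Idi1, 130 and 85 in Fdps, and 82 in Lss. A GC box, searched as GGGCGG on both strands, was present in 5 of the 6 windows, against 33.1% of all windows and 56.9% of those of tested genes, and Idi1 was the member without it. The sterol response element, searched as TCACNCCAC on both strands, was found in 0 of the 6 windows and in 1.12% of all windows. That says only that these letters are not in these windows. Among the other enzymes of the pathway, a CCAAT box was found in 9 of 10 windows.

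The genes were expressed in every library. RPKM divide RPM by the length in kilobases. Per kilobase of gene span, which counts introns, Hmgcs1 averaged 10.6 RPKM, Cyp51 8.19, Fdps 6.58, Fdft1 2.49, Sqle 2.32, Idi1 1.70, Dhcr7 1.35 and Lss 0.888. Since the length is that of the whole span, a long intron lowers a gene in this order. Each member had at least 353 reads in every library, the lowest count being that of Idi1. Human TOR1A separated the genotypes in every library, with 102 to 144 RPM in TG and at most 0.972 RPM in wt libraries. Slc17a7, a marker of cortical neurons, was over 20 RPM in 5 libraries (wt naive 197, 199 and 202, TG naive 190 and TG crush 220). The calls, the change of Lss in TG rats and the correlations between members are also given without them. Other values include these 5 libraries unless stated. Depth was 29151455 to 38407359 assigned reads.

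No member differed between TG and wt naive rats at an adjusted p under 0.05 (limma, Benjamini-Hochberg over all 18222 genes). The count was 0 of 8, against 0.0329% of all tested genes. At an unadjusted p under 0.05 it was 1 of 8, against 4.98%, and limma-voom on the recovered reads also gave 0. Ranges of the libraries overlapped for 8 of 8 members, and 0.0494% of tested genes did not overlap. All 8 fitted changes were below 0, with a median log2 change of -0.08 against -0.01 over all tested genes. The members vary together between libraries, as shown further on, so the 8 signs are not 8 separate observations. The 12 markers of spiny neurons, the main cell type of the striatum, were all above 0 in the same contrast (median 0.12), and the 4 cortical ones all below 0 (median -0.29), with 0 called in either list. When the spiny neuron level was a covariate, 7 of 8 members were below 0, with a median of -0.06. In bulk RNA, fewer cells of a type and less RNA per cell cannot be told apart.

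Hmgcs1 (chromosome 2, 52427351 to 52445082, Rnor_6.0, as are all gene positions here) encodes the synthase of an early step of the pathway, ahead of mevalonate. Its lowest, median and highest levels were 179, 193 and 202 RPM in wt naive and 154, 180 and 213 RPM in TG naive libraries. The TG naive libraries thus reached both below and above those of wt naive rats. The log2 change was -0.11 (SE 0.06, limma adjusted p = 0.999), a difference of -7.56% with a 95% confidence interval of -15.7% to 1.33%.

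Dhcr7 (chromosome 1, 217018916 to 217034890) encodes the reductase of the last step, from 7-dehydrocholesterol to cholesterol. It ran from 18.6 to 29.3 RPM in wt naive libraries (median 22.6) and from 17.1 to 23.1 RPM in TG naive libraries (median 20.8). The ranges overlapped, and the highest library was wt naive 201. Dhcr7 was the member with an unadjusted p under 0.05, at a log2 change of -0.17 (SE 0.07, limma adjusted p = 0.952). That is a difference of -10.9%, with an interval of -19.4% to -1.53%.

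Lss (chromosome 20, 12844522 to 12870474) encodes lanosterol synthase, which folds squalene epoxide into the first sterol. It was the most variable member, with 18.6, 22.1 and 36.9 RPM as lowest, median and highest in wt naive and 16.4, 20.3 and 21.3 RPM in TG naive libraries. The upper end of the wt naive range was library 201 alone, and the next lower one held 27.1 RPM. The log2 change was -0.23 (SE 0.12, limma adjusted p = 0.999). The wide interval, -27.5% to 0.723%, leaves the size of this difference poorly known.

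Sqle (chromosome 7, 99609929 to 99624803) encodes squalene epoxidase, an oxygen-using step that can limit flux after squalene. Its median was 34.2 RPM in wt naive (31.9 to 43.1) and 30.8 RPM in TG naive libraries (28.4 to 43.7). The highest TG naive library, 187, lay above every wt naive library. The change did not pass the test, at log2 -0.12 (SE 0.07, limma adjusted p = 0.999). For the remaining members Idi1, Fdps, Fdft1 and Cyp51, the fitted changes lay between -0.05 and -0.02.

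After the crush, TG and wt rats also gave 0 of 8 calls, against 0.00549% of all tested genes, with 0 of 8 at an unadjusted p under 0.05 (8.06% of all) and 0 by limma-voom. Ranges overlapped for 8 of 8 members, while 0.384% of tested genes did not overlap. The median change of the members was 0.03, against 0.00 over all tested genes, and 2 of 8 were below 0. All 12 spiny neuron markers were below 0 in this contrast (median -0.24), with 0 called. Once the fit allowed for the spiny neuron level, 5 of 8 members were below 0, with a median of -0.01. Idi1 (chromosome 17, 57976266 to 57984036), the isomerase of the activated isoprene units of the pathway, had the largest difference. It ran from 11.6 to 13.0 RPM in wt crush (median 12.3) and from 11.7 to 17.4 RPM in TG crush libraries (median 14.2). The ranges overlapped at the low end, and the TG libraries reached higher. The log2 change was 0.19 (SE 0.10, limma adjusted p = 0.629), or 14.4% with an interval of -0.650% to 31.8%. Over both arms together, 0 of 8 members passed (0.0384% of all tested genes), 0 of 8 at an unadjusted p under 0.05 (5.09%) and 0 by limma-voom, and the members' intervals ran from -17.5% to 16.0%.

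**Figure D1:**
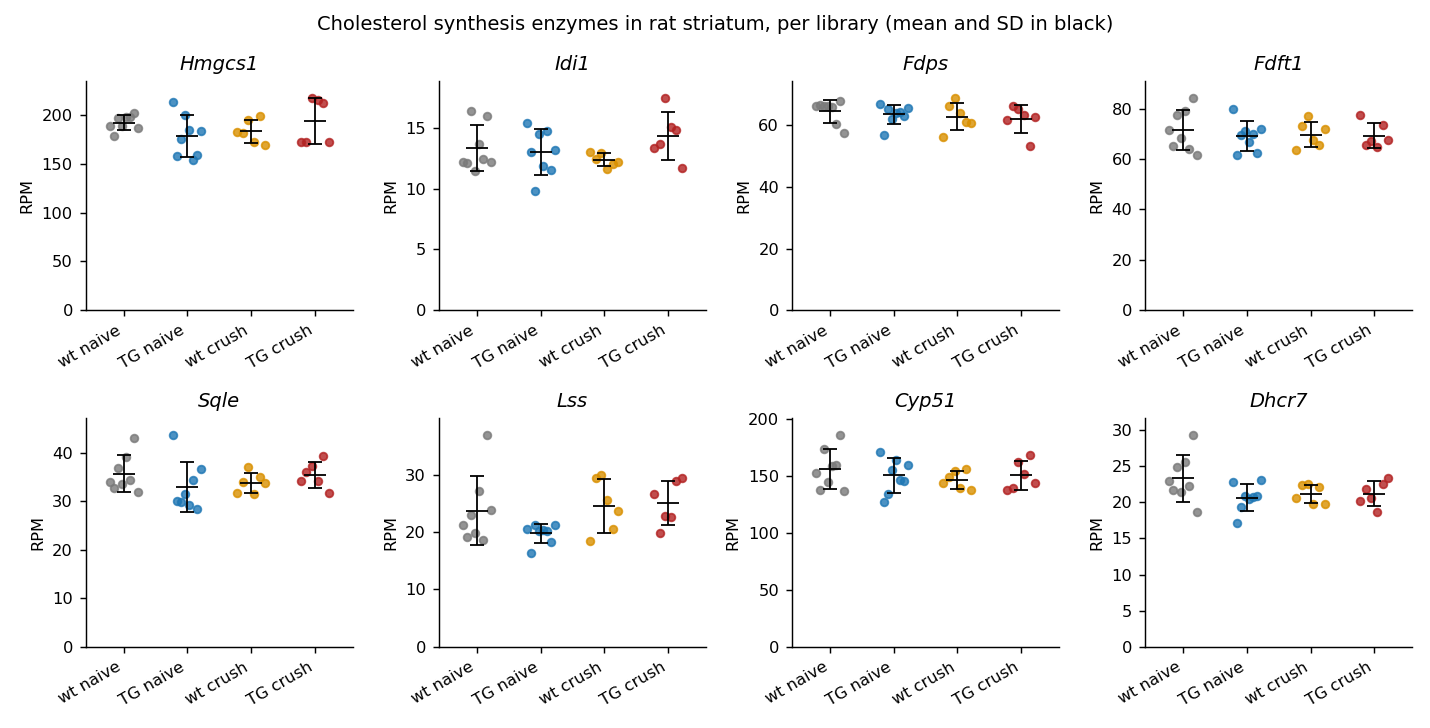
Level of each of the 8 enzymes in RPM (vertical axes, from 0) in every library of the 4 groups, with the group mean and SD in black. The groups overlap for each enzyme, and the isolated high point of Lss is wt naive library 201 at 36.9 RPM.

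Crush and naive rats were compared within each genotype. In wt rats 0 of 8 members passed the test, against 0.159% of all tested genes (0 of 8 at an unadjusted p under 0.05, against 20.8%, and 0 by limma-voom). In TG rats 0 of 8 passed, against 3.08% (1 of 8 at an unadjusted p under 0.05, against 19.3%, and 0 by limma-voom). Ranges overlapped for 8 of 8 members in both genotypes, and 0.648% and 0.73% of tested genes did not overlap. The median change of the members was -0.07 in wt rats, against -0.03 over all tested genes, and 0.08 in TG rats, against -0.01. In wt rats 7 of 8 members were below 0, in TG rats 1 of 8. In wt rats all 12 spiny neuron markers were above 0 (median 0.36), and all 4 cortical ones below 0 (median -0.81), with 0 called. All 8 astrocyte markers were also below 0 (median -0.17). Once the fit allowed for the spiny neuron level, 4 of 8 members were below 0 in wt rats (median -0.0003). In TG rats 9 of 12 spiny neuron markers were below 0 (median -0.05). That fit gave TG rats 3 of 8 members below 0 (median 0.07).

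Lss was the member with the lowest p in TG rats. Its lowest, median and highest levels were 19.8, 24.7 and 29.4 RPM after crush, against 16.4, 20.3 and 21.3 RPM in naive TG libraries. Of the 6 TG crush libraries 5 lay above the highest naive one, and 219, at 19.8 RPM, did not. The log2 change was 0.32 (SE 0.12, limma adjusted p = 0.147), or 24.9% with an interval of 4.63% to 49.2%. In wt rats Lss had 18.4, 24.6 and 29.9 RPM after crush, a log2 change of 0.06 (SE 0.12, limma adjusted p = 0.795). Without the 5 libraries of high Slc17a7, the change in TG rats was 0.35 with a limma adjusted p of 0.279.

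Hmgcs1 fell into separate levels within the TG crush group. Libraries 214, 219 and 226 held 173, 172 and 173 RPM, and libraries 220, 222 and 223 held 218, 216 and 212 RPM. The naive TG libraries, at 154 to 213 RPM, covered the gap between these levels. For Cyp51, libraries 214, 219 and 226 were also below 220, 222 and 223 (138, 139 and 144 against 162, 151 and 169 RPM). Idi1 had the same order (13.3, 13.7 and 11.7 against 17.4, 15.1 and 14.8 RPM). Sqle, Fdps, Fdft1, Lss and Dhcr7 did not. Against naive TG rats the log2 change of Hmgcs1 was 0.12 (SE 0.07, limma adjusted p = 0.377). In wt rats it was -0.07 (SE 0.07, limma adjusted p = 0.570), with 170, 182 and 200 RPM as lowest, median and highest after crush.

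Fdps, Fdft1 and Cyp51 differed little between the groups. Fdps (chromosome 2, 188403595 to 188413219), which makes farnesyl diphosphate, where the pathway branches to isoprenoids, averaged 64.5 ± 3.70 RPM in wt naive, 63.5 ± 3.15 in TG naive, 62.8 ± 4.44 in wt crush and 62.0 ± 4.65 in TG crush libraries (SD, n = 8, 8, 6 and 6). Fdft1 (chromosome 15, 46339248 to 46367302), squalene synthase and the first enzyme committed to sterols, averaged 71.4 ± 8.06, 69.1 ± 5.78, 69.7 ± 5.05 and 69.3 ± 4.98 RPM in the same order. Cyp51 (chromosome 4, 27175564 to 27194018), the lanosterol demethylase, averaged 156 ± 17.2, 150 ± 15.0, 147 ± 7.77 and 151 ± 12.6 RPM. For these 3 genes every difference of group means was smaller than the largest SD of the groups.

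Averaged over both genotypes, the crush gave 0 of 8 calls, against 11.4% of all tested genes, and limma-voom also gave 0. At an unadjusted p under 0.05 the count was 1 of 8, against 28.5%. That member was Lss, with a log2 change of 0.19 (SE 0.09, limma adjusted p = 0.152), or 14.2% with an interval of 0.742% to 29.5%. Without wt naive library 201 the change of Lss was 0.24 and passed at a limma adjusted p of 0.0435, so for Lss the call depends on 1 library. The intervals of all 8 members lay between -10.2% and 29.5%. Calls over all genes depended on the scaling. Of the 2086 genes called, 26.5% were higher, and under median-of-ratios rescaling 47.2% of the calls were.

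The interaction asks whether the crush effect differs between the genotypes. It gave 0 of 8 calls, against 0.00549% of all tested genes, with 0 of 8 at an unadjusted p under 0.05 (7.49% of all) and 0 by limma-voom. All 8 fitted values were above 0, with a median log2 difference of 0.18 against 0.01 over all tested genes, and Lss had the largest, 0.26 (SE 0.18, limma adjusted p = 0.728). Hmgcs1 was at 0.19 (SE 0.10, limma adjusted p = 0.664). The shared variation of the members applies here too. In the same contrast all 12 spiny neuron markers were below 0 (median -0.35) and all 4 cortical ones above 0 (median 0.94), with 0 called in either list. When the spiny neuron level was a covariate, 7 of 8 members were above 0, with a median of 0.08.

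**Figure D2:**
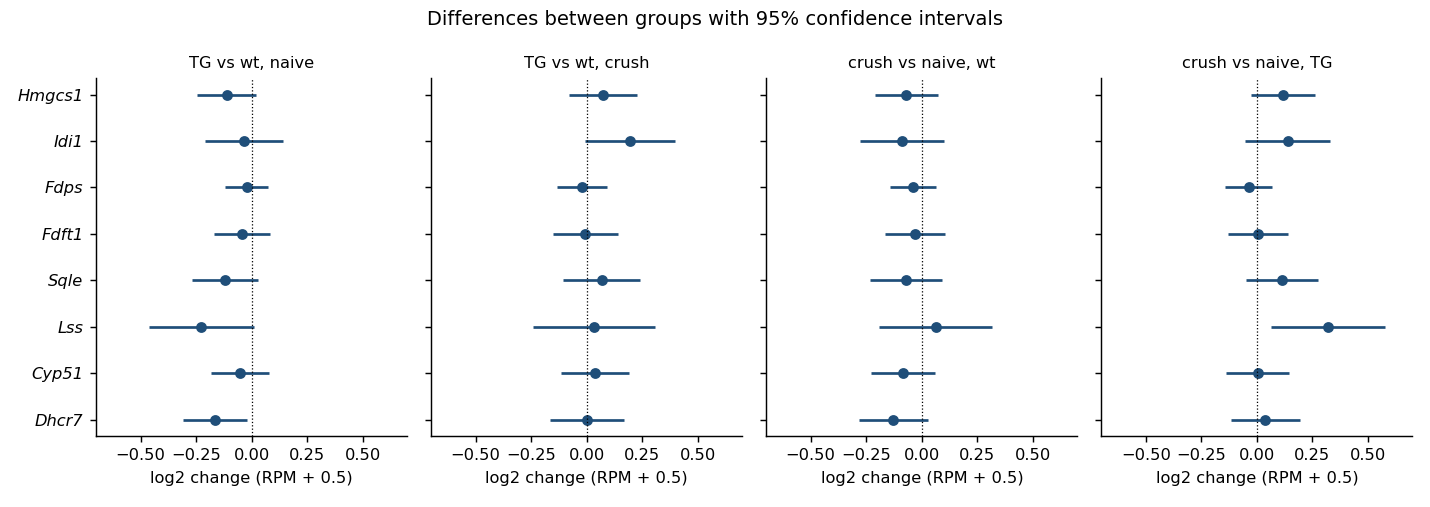
Fitted log2 change of each enzyme (horizontal axis, on the log2 (RPM + 0.5) scale) with its 95% confidence interval, in the 4 comparisons of single groups. The dotted line marks no change, and the intervals of Dhcr7 between naive TG and wt rats and of Lss between crush and naive TG rats do not cross it before adjustment over all genes.

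The members varied together between libraries. Taken as deviations from the group mean on the log2 scale, all 28 pairs of members correlated above 0 over the 28 libraries. The median Pearson r was 0.45, from 0.09 for Hmgcs1 and Fdps to 0.75 for Cyp51 and Dhcr7, and the median Spearman rho was also 0.45. Over all pairs of the 12733 genes of at least 5 RPM on average the median r was 0.09. These correlations are a description, since the points share library preparation, depth and tissue make-up.

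The libraries at the ends show how far the members went together. In wt naive library 201 all 8 members were above the group mean, by 0.27 on average on the log2 scale, and 7 of 8 were the highest of their group. In TG naive library 187 all 8 were above the mean as well, by 0.20, and 6 of 8 were the highest. At the other end, wt naive 202 was the lowest of its group for 5 members and TG naive 188 for 5. TG naive 187 and 188 were also the libraries of highest and lowest depth, with 38407359 and 29151455 assigned reads. Libraries 201 and 202 of wt naive rats had 33702134 and 31907472. Myelin markers were 0.65 above the group mean in library 201 and 0.26 below it in library 187 (deviation -0.26), so the 2 highest libraries differ in myelin.

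Within groups the pattern was uneven. The median r between members was 0.75 in the 8 wt naive libraries, 0.61 in the 8 TG naive, 0.42 in the 6 wt crush and 0.00 in the 6 TG crush libraries, where 14 of 28 pairs were positive. Whether these values differ between groups was not tested. Without libraries 201 and 187, the farthest from the median, the median r was 0.39 with 25 of 28 pairs positive. Without the 5 libraries of high Slc17a7 it was 0.46, and with median-of-ratios rescaling 0.39.

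**Figure D3:**
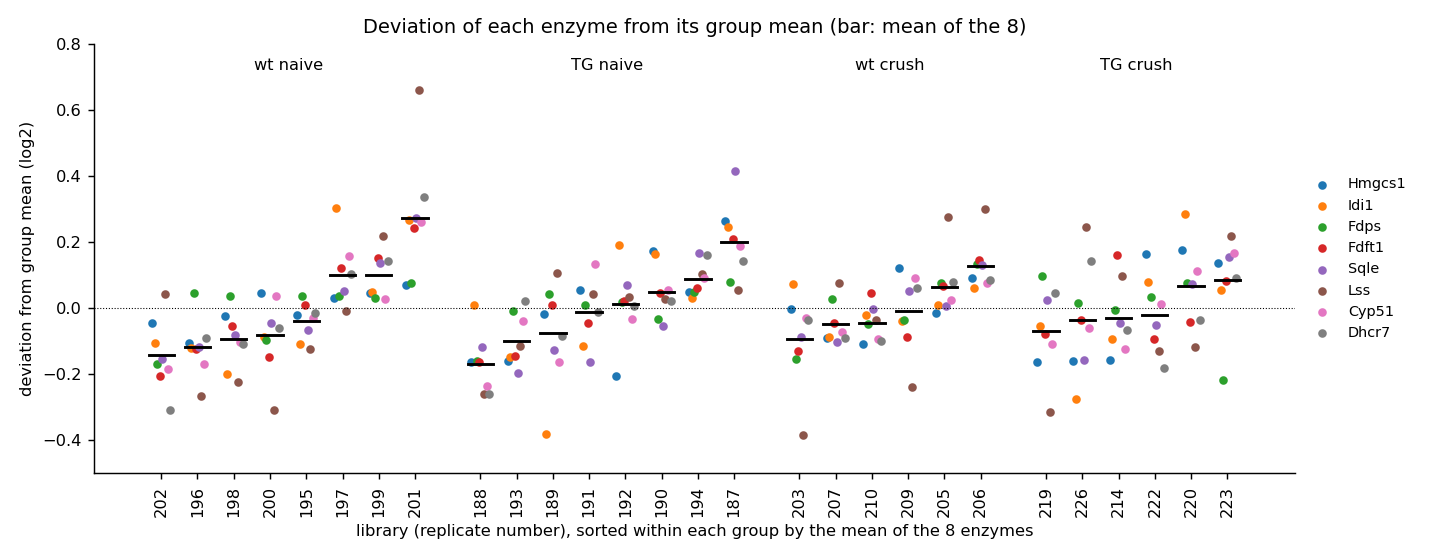
Deviation of each enzyme from its group mean (vertical axis, log2) in the 28 libraries, sorted within each group by the mean of the 8 enzymes, which the bars show. All 8 enzymes lie above 0 in wt naive 201 (mean 0.27) and TG naive 187 (mean 0.20), and 7 of 8 lie below 0 in wt naive 202 and TG naive 188.

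The mean deviation of the 8 members moved with tissue markers. Over the 28 libraries its r was -0.52 with 12 markers of spiny neurons, 0.46 with 8 of astrocytes, 0.44 with 9 of myelin, 0.46 with 4 of choroid plexus and 0.13 with 4 of cortical neurons. In rho these were -0.46, 0.42, 0.33, 0.44 and 0.31, and without the 2 libraries farthest from the median r was -0.56, 0.55, 0.38, 0.43 and 0.33. With markers of oligodendrocyte precursors r was 0.34, of microglia 0.19, of endothelium -0.08 and of pituitary -0.02, and with assigned reads it was 0.19 (rho 0.07). Without the 2 libraries farthest from the median, r with assigned reads was 0.01. With the median-of-ratios size factor relative to assigned reads r was 0.44 (rho 0.53), and 0.52 without the 2 libraries farthest from the median. With the levels of the spiny neuron, astrocyte, myelin and choroid plexus markers all regressed out, the median r between members was 0.48, against 0.45 as measured. The SD within groups (log2) was lowest for Fdps, 0.092, which 86.0% of genes exceeded. It was highest for Lss, 0.25, which 10.6% exceeded, against a median of 0.136 over genes of at least 5 RPM.

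Ranked by r with the mean of the 8 members over the 28 libraries, among 12725 other genes, the most alike was Acat2 (r 0.85, rho 0.88), the cytosolic acetoacetyl-CoA thiolase of the step before Hmgcs1. Acat2l1, its neighbour and near copy on chromosome 1, followed at 0.85, and reads may be shared between these genes. Acss2, which makes acetyl-CoA from acetate, came at rank 4 with 0.78, and Fabp7, a fatty acid binding protein of astroglia, at rank 7 with 0.76. The others of the first 8 were Fgfbp3 (0.80), Als2cl (0.78), Dynlt1 (0.77) and Terf1 (0.75). The most opposite were Syt10, Gdf10 and Dact2, each at -0.72. Without the 2 libraries farthest from the median, Acat2 was at 0.86, Acss2 at 0.76 and Insig1 at 0.63.

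Of the 12 other synthesis enzymes, 8 had an r over 0.5 with the mean of the members, and of the 10 fatty acid enzymes 6 had. Among 7 SREBP regulators 2 had, Insig1, which encodes a brake on SREBP, at rank 31 with 0.70 (rho 0.69), and Srebf1, which encodes SREBP1, with 0.52 (rho 0.55). The count was 0 of 10 uptake and trafficking genes, 1 of 13 genes of efflux and turnover (Lcat, which esterifies cholesterol on lipoproteins, 0.55), and 0 of 9 of the isoprenoid branch, and over all genes 6.39%. With the 2 libraries farthest from the median left out, r rose over 0.5 for Pdss1 (0.59), Fnta (0.51) and Pggt1b (0.502) of the isoprenoid branch. It also did for Mylip (0.59, uptake) and Mvd (0.51, synthesis). It fell under 0.5 for Srebf1 (0.47), Lcat (0.40), Ebp (0.32), Scd2 (0.45) and Me1 (0.45). The counts per list thus depend on these 2 libraries. Insig1 averaged 43.7 ± 6.08 RPM in wt naive, 40.0 ± 4.02 in TG naive, 42.2 ± 1.65 in wt crush and 44.7 ± 5.29 in TG crush libraries (SD, n = 8, 8, 6 and 6), and these groups overlapped. Cyp46a1, the neuronal enzyme that turns cholesterol into 24-hydroxycholesterol for export, was at -0.49.

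**Figure D4:**
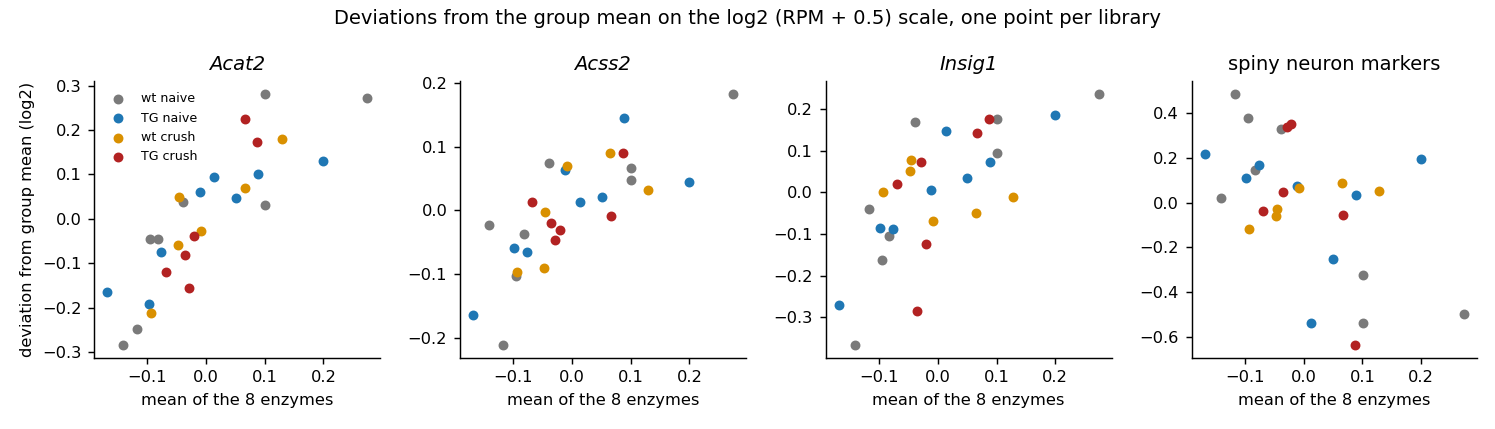
Deviation from the group mean in each library (log2) for Acat2, Acss2, Insig1 and the mean of the spiny neuron markers (vertical axes) against the mean deviation of the 8 enzymes (horizontal axes), coloured by group. Points of the first 3 panels rise from left to right (r 0.85, 0.78 and 0.70), and those of the spiny neuron markers fall (r -0.52).

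Some other genes of sterol metabolism passed the test in the crush comparison averaged over both genotypes, in which 3.03% of all tested genes were called higher and 8.42% lower. Whether their lists were called more often than all tested genes, or than the 8 enzymes, was not tested. Among the 12 other synthesis enzymes 0 were higher and 2 lower. Mvk and Pmvk, the kinases that phosphorylate mevalonate in turn, changed by -0.13 (SE 0.04, limma adjusted p = 0.0465) and -0.17 (SE 0.05, limma adjusted p = 0.0357). Both calls were near the threshold. With 1 library left out, Mvk passed in 9 of 28 runs (limma adjusted p from 0.0501 to 0.0902 in the others) and Pmvk in 17 of 28 (0.0511 to 0.0823 in the others). Mvk was lost without any 1 of wt naive 195, 198, 199, 200 or 201, wt crush 203, 206, 207 or 210, TG naive 189 to 194, or TG crush 214, 219, 220 or 222. Pmvk was lost without any 1 of wt naive 197 or 201, wt crush 209 or 210, TG naive 190 to 193, or TG crush 214, 220 or 222.

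Of the 10 genes of sterol uptake and trafficking, 0 were higher and 1 lower. Lrp8, a receptor for apolipoprotein E and reelin, had 55.6 to 69.7 RPM in wt naive and 44.0 to 50.9 RPM in wt crush libraries, which did not overlap, and 47.8 to 65.6 against 42.3 to 57.1 RPM in TG rats, which did. Its change was -0.25 (SE 0.05, limma adjusted p = 0.00346). It passed in all 28 runs with 1 library left out and under all 11 other settings that give this contrast.

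Of the 13 genes of efflux, LXR signalling and turnover, 2 were higher and 3 lower. Nr1h2, the sterol-sensing receptor LXR beta, had medians of 51.0 RPM in wt naive, 54.8 in TG naive, 43.8 in wt crush and 44.4 in TG crush libraries, and changed by -0.23 (SE 0.04, limma adjusted p = 0.0012). Ch25h, which makes 25-hydroxycholesterol, had medians of 1.55, 1.16, 1.88 and 2.01 RPM in the same order and changed by 0.45 (SE 0.10, limma adjusted p = 0.00573). Abcg1, a sterol exporter, changed by 0.13 (SE 0.04, limma adjusted p = 0.0269), Apoe, the main apolipoprotein of the brain, by -0.25 (SE 0.06, limma adjusted p = 0.0141) and Clu, another apolipoprotein, by -0.21 (SE 0.06, limma adjusted p = 0.0287). In TG rats alone Ch25h (0.69, SE 0.14), Nr1h2 (-0.28, SE 0.06) and Pdss1 (0.38, SE 0.08) passed, at limma adjusted p of 0.00802, 0.00804 and 0.00804. With only the naive and crush TG libraries in the fit, that p was 0.0578 for Ch25h and 0.0529 for Nr1h2. The calls in TG rats were 1 higher and 1 lower of these 13 genes and 1 higher of 9 of the isoprenoid branch. There were 0 among 12 synthesis enzymes, 7 SREBP regulators, 10 uptake genes and 10 fatty acid enzymes, against 3.08% of all tested genes.

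In the isoprenoid branch 1 of 9 genes was higher and 1 lower. Pdss1, which builds the tail of ubiquinone, changed by 0.22 (SE 0.06, limma adjusted p = 0.0129), and Fnta, a subunit of protein prenyltransferases, by -0.19 (SE 0.06, limma adjusted p = 0.0314). Of 7 SREBP regulators and 10 fatty acid enzymes 0 passed. The lowest p among them were those of Mbtps2, a protease of SREBP, at 0.19 (limma adjusted p = 0.0761), Srebf1 at -0.15 (0.118), Elovl6 at 0.13 (0.151) and Fads2 at -0.10 (0.159). Srebf2, which encodes SREBP2, was at -0.05 (limma adjusted p = 0.298) and Insig1 at 0.06 (0.522). In the comparisons of genotype, the crush in wt rats and the interaction, 0 genes of these lists passed. Of all tested genes, 0.0329% (naive), 0.00549% (crush) and 0.0384% (both arms) were called between genotypes. For the crush in wt rats the share was 0.159%, and for the interaction 0.00549%.

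Markers moved with these calls. In the same contrast 3 of 8 astrocyte markers passed as lower (Gjb6 -0.28, Aldh1l1 -0.22 and Aldoc -0.18), as did 3 of 7 microglial and 2 of 4 endothelial ones, and 2 of 3 pituitary ones passed as higher. Summed astrocyte markers ran from 3618 to 5086 RPM in wt naive, 4042 to 4741 in TG naive, 3643 to 3841 in wt crush and 3517 to 4895 in TG crush libraries. Spiny neuron, cortical, myelin, precursor and choroid plexus lists had 0 calls. Of the 12 spiny neuron markers 11 were above 0 (median 0.17), and all 4 cortical ones were below 0 (median -0.35). The median over all tested genes was -0.02. The part of cell make-up in the changes of Apoe, Clu and the other genes was not tested.

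Without the 5 libraries of high Slc17a7, Lrp8, Nr1h2, Ch25h and Pdss1 kept their calls. The others lost theirs, with changes of the same sign and similar size: Abcg1 0.12 (limma adjusted p = 0.114), Apoe -0.21 (0.101), Clu -0.17 (0.148), Fnta -0.16 (0.162), Mvk -0.15 (0.0782) and Pmvk -0.14 (0.152). When the spiny neuron level was a covariate, Abcg1 was at 0.12 (0.0529), Clu at -0.16 (0.0633), Mvk at -0.12 (0.0870) and Pmvk at -0.11 (0.0582), so that these 4 lost their calls. With no minimum level, Apoe (0.0538), Clu (0.0544), Fnta (0.0530), Mvk (0.0676) and Pmvk (0.0576) lost theirs on adjustment over more genes, with the fitted changes as reported. With median-of-ratios rescaling Mvk was at -0.10 (0.0876). Abcg1 also lost its call without TG crush 222 (0.0568). Clu lost it without wt crush 207 or 210 or TG crush 220 or 222 (0.0521 to 0.0677), and Fnta without wt crush 209 or TG crush 214, 220 or 222 (0.0603 to 0.0684).

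**Figure D5:**
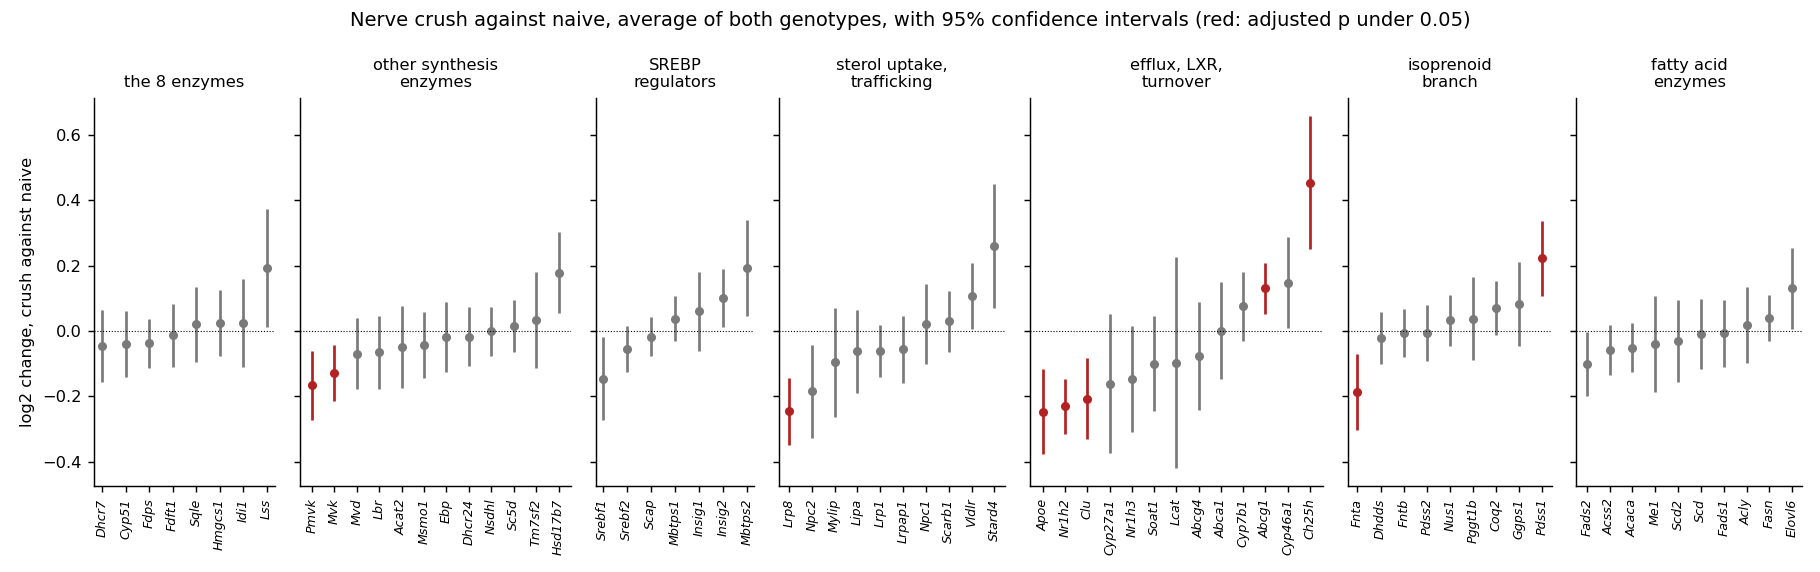
Log2 change between crush and naive rats averaged over both genotypes (vertical axis, log2 (RPM + 0.5) scale) with 95% confidence intervals for the 8 enzymes and the genes of 6 related lists. Red marks an adjusted p under 0.05, seen for 0 of the 8 enzymes and, among others, for Lrp8 at -0.25 and Ch25h at 0.45.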

How the data were processed

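The deposited table holds RPKM values (unit recorded as other because of its decimal commas) of 28 striatal libraries, made by the authors. STAR 2.6.1a, Rnor_6.0, featureCounts of Subread 1.6.3 and DESeq2 1.22.2 are named in the submitters' processing notes. The RPKM length is the gene's span with introns. No source used here says how the counting treated strand, which leaves overlapping antisense genes uncertain. RPKM times length in kilobases gave RPM, and these were whole reads for 100% of values (tolerance 0.02). A count of 0 (floor of 3 counts) allows up to 0.103 RPM. Libraries were single-end reads of 75 nt from the TruSeq stranded mRNA kit in 2 runs, with no record here of which run held which library. No 2 libraries of a group held the same values.

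A single model in limma 3.58.1 (R 4.3.3) took log2 (RPM + 0.5) of the 28 libraries by group with a mean-variance trend, so fold changes are on that scale and understate those of low genes. The 18222 genes of at least 0.5 RPM in at least 6 libraries were tested in 7 contrasts, and calls were made at a Benjamini-Hochberg adjusted p under 0.05. The labels name libraries by a number of their own and do not speak of separate animals. The p-values therefore reflect library-to-library spread, which may be technical. The fit was tested on simulated counts drawn independently for each gene, without shared variation between genes or shifts of cell make-up. That test therefore does not bear on how the fit treats such variation.

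The 8 genes, 6 pathway lists and 9 marker lists were chosen with earlier results of these data known. Of the markers, Slco1a4 was not matched in the table. Named were the 8 genes, every called pathway gene and otherwise the 2 of lowest p in the average crush contrast, with Srebf2 and Insig1 always. A few further genes of these lists are not reported here. The 8 genes most like the members and the 3 most opposite, of at least 5 RPM on average, were also named. Alternatives were 3 scales or pseudocounts, 2 filters, rescaling, limma-voom on recovered reads, the compared groups alone, array weights, 2 marker covariates, omission of the libraries whose Slc17a7 exceeded 20 RPM, and leaving out each library in turn. Alternatives for the correlations between members were chosen after seeing the data. Plots used matplotlib 3.10.9 under Python 3.11.15.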

Additional observations from a re-analysis of the deposited data

Results flagged for a closer look

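Among 40 combinations of a gene (the 8 enzymes, Srebf2 and Insig1) and a group, the lowest or highest library stood apart from the rest by more than Dixon's 95% critical value in 2. Chance gives about 5% of such combinations. Fdps was at 53.1 RPM in TG crush library 223, its lowest, where the next library had 61.6 RPM. Lss was at 36.9 RPM in wt naive library 201, its highest, with 27.1 RPM in the next.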

How the results depend on the processing

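No paired analysis was possible because no replicate number is shared between groups. The count of members called stayed at 0 under the 12 other settings in each of the 7 contrasts they could be run for. With 1 library left out, it ranged from 0 to 1 in the crush contrast averaged over both genotypes, the 1 being Lss without wt naive library 201, and was 0 in the other contrasts. Over the 12 settings the 56 member changes gave 648 values, of which 4 shifted by more than 1 SE, 0 passed the test and 26 had another sign. With 1 library left out they gave 1568 values, of which 1 shifted, 1 passed and 62 had another sign. The compared groups alone cannot be fitted for the averaged contrasts and the interaction.

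The number of all genes called, against which the members are read, moved far more. It was 2086 in the averaged crush contrast and ran from 553 without the libraries of high Slc17a7 to 4579 with array weights, and from 1137 (without TG crush 222) to 3727 (without TG crush 223) with 1 library left out. For the crush in TG rats it was 562 and ran from 127 (compared groups alone) to 1753 (array weights), and from 224 (without TG crush 220) to 1218 (without TG crush 223). For the crush in wt rats it was 29 and ran from 10 (spiny neuron covariate) to 1436 (array weights), and from 12 (without wt naive 197) to 510 (without wt naive 196). It stayed between 0 and 8 in the contrasts of genotype and the interaction. Each member had at least 353 reads in every library.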
